A study of Homo sapiens with 6 samples.

Results

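The genes described here are the transcription factors that drive epithelial-mesenchymal transition (EMT) and their epithelial counterparts. They were chosen by symbol as SNAI1, SNAI2, ZEB1, ZEB2, TWIST1, TWIST2, GRHL1, GRHL2, OVOL1 and OVOL2. Of these 10 genes, 9 were found among the 23569 genes of the expression table, and OVOL1 was not listed. RNA-seq was performed on TFK1, a cancer cell line of the extrahepatic bile duct, after lentiviral transduction and puromycin selection. The 3 oeNC libraries came from the negative control cells and the 3 oeSTUB1 libraries from cells overexpressing STUB1, an E3 ubiquitin ligase. All 6 libraries carry the vector background and the label "no" for treatment. Each group is a selected stable population as far as the methods tell, and although the methods state in general that experiments were repeated independently, no source used here says of the RNA-seq libraries that the replicates were separate cultures. The p-values may therefore measure technical spread only, and an effect of STUB1 and a difference between the stable populations cannot be told apart. The question addressed by the comparison is which genes change at the RNA level when STUB1 is overexpressed.

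Expression is given in FPKM, which is fragments scaled to gene length and to the total of the library. The libraries held between 33106564 and 36744521 fragments, recovered from the steps of the FPKM values. The 2 groups were compared with limma on log2(FPKM + 0.1) over the 15353 genes that averaged 0.1 FPKM or more, and a gene was called at a Benjamini-Hochberg adjusted p under 0.05. A log2 fold change on this scale understates the change of genes with low values. STUB1 itself measured 32.9, 33.0 and 30.9 FPKM in oeNC and 61.4, 74.97 and 61.9 FPKM in oeSTUB1. All oeSTUB1 libraries were above all oeNC libraries, with a ratio of mean FPKM of 2.05.

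During EMT, epithelial cells lose cell-cell junctions and apical-basal polarity and acquire motile, mesenchymal features. The SNAI and ZEB zinc finger proteins bind E-box elements and repress epithelial genes such as CDH1, which encodes E-cadherin. The TWIST proteins are basic helix-loop-helix factors that bind E-boxes with E protein partners. GRHL and OVOL proteins act in the opposite direction: they maintain epithelial genes, and ZEB1 and the GRHL and OVOL factors are known to restrain each other.

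The sequences these factors are known to recognise were searched for in the RefSeq promoters of build GRCh38.p14, each from 250 bases before to 50 bases after the gene start. The E-box CAGGTG, searched on both strands as CAGGTG or CACCTG, is the form bound by SNAI and ZEB proteins. It was present in 20.6% of 27305 promoters and in 18.8% of the 11980 promoters of tested genes. Among the 30 junction, polarity and other epithelial genes listed as targets, 18 had a promoter in the reference and 10 of these held the motif (55.6%). CDH1 had no entry. The list holds known targets of factors that bind this E-box, so a share above the background may be built into it. In the list of mesenchymal targets the motif was present in 3 of 20 promoters (15.0%). Of the genes chosen by symbol, 4 had a promoter entry (ZEB1, ZEB2, TWIST2 and GRHL1), and the motif was found in that of ZEB1. The GRHL motif, searched as AACNGGTT or AACCNGTT, was present in 1.73% of all promoters and in 1 of the 18 epithelial promoters, that of CGN, a tight junction gene. The 2 motifs do not overlap one another in the windows shown. A match describes the letters of the window and is not evidence of binding.

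Windows of 30 bases centred on 1 motif of each gene are shown (that of MUC1 also holds the next), 5′ to 3′ on the strand of the gene, for ZEB1, for CGN and for epithelial genes whose RNA levels are given further on. Capitals mark the motif. OCLN, DSP, CRB3 and AP1M2 were picked for display after their values were seen.
ZEB1, chr10:31318348-31318377, plus strand, motif beginning 57 bases before the start: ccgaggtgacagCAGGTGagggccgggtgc
OCLN, chr5:69492502-69492531, plus strand, 33 bases before the start: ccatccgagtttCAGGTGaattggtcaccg
DSP, chr6:7541574-7541603, plus strand, 85 bases before the start: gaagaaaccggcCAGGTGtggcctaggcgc
CRB3, chr19:6464112-6464141, plus strand, 147 bases before the start: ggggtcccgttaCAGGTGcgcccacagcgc
AP1M2, chr19:10587352-10587381, minus strand, 57 bases before the start: gacagcgctgctCACCTGgccgcctcccct
MUC1, chr1:155192980-155193009, minus strand, 82 and 75 bases before the start: gcggggttttgtCACCTGtCACCTGctccg
CGN, chr1:151511349-151511378, plus strand, GRHL motif 27 bases before the start: cgcagcggagtAACAGGTTggtgggaggga

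The EMT and epithelial factors mostly missed the threshold, with SNAI2 as the exception. Of the 9 listed genes, 7 passed the filter on low values, and ZEB2 and GRHL2 did not. SNAI2 was called higher, which is 1 of 7 tested against 7.01% of all tested genes called higher, and none was called lower against 6.59% of all tested genes (13.6% in either direction). The 95% limma interval of none of the 7 lay wholly below 0. SNAI2 averaged under 0.1 FPKM in oeNC and passed the filter only through oeSTUB1, where it is high, whereas ZEB2, also higher in oeSTUB1, stayed below the filter. The count is given as a description and supports nothing about the group. In oeNC the order of mean FPKM was ZEB1 (3.54 ± 0.444), TWIST2 (3.49 ± 0.754), SNAI1 (2.42 ± 0.346), TWIST1 (1.05 ± 0.266), GRHL1 (0.567 ± 0.0743), OVOL2 (0.144 ± 0.0405), SNAI2 (0.0387 ± 0.0118), ZEB2 (0.0239 ± 0.0226) and GRHL2, with SD and n = 3. ZEB1 and TWIST2 differed by less than the SD of either, and SNAI2 and ZEB2 by less than the SD of ZEB2 but more than that of SNAI2. In oeSTUB1 the order was TWIST2 (3.38 ± 0.265), ZEB1 (3.21 ± 0.821), SNAI1 (1.95 ± 0.162), TWIST1 (1.76 ± 0.591), SNAI2 (0.461 ± 0.1096), GRHL1 (0.391 ± 0.107), OVOL2 (0.176 ± 0.0449), ZEB2 (0.131 ± 0.0683) and GRHL2. SNAI2 thus moved from the seventh to the fifth place, next to GRHL1, from which it differed by less than the SD. The other EMT factors with over 1 FPKM in oeNC kept their places apart from an exchange of ZEB1 and TWIST2.

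**Figure D1:**
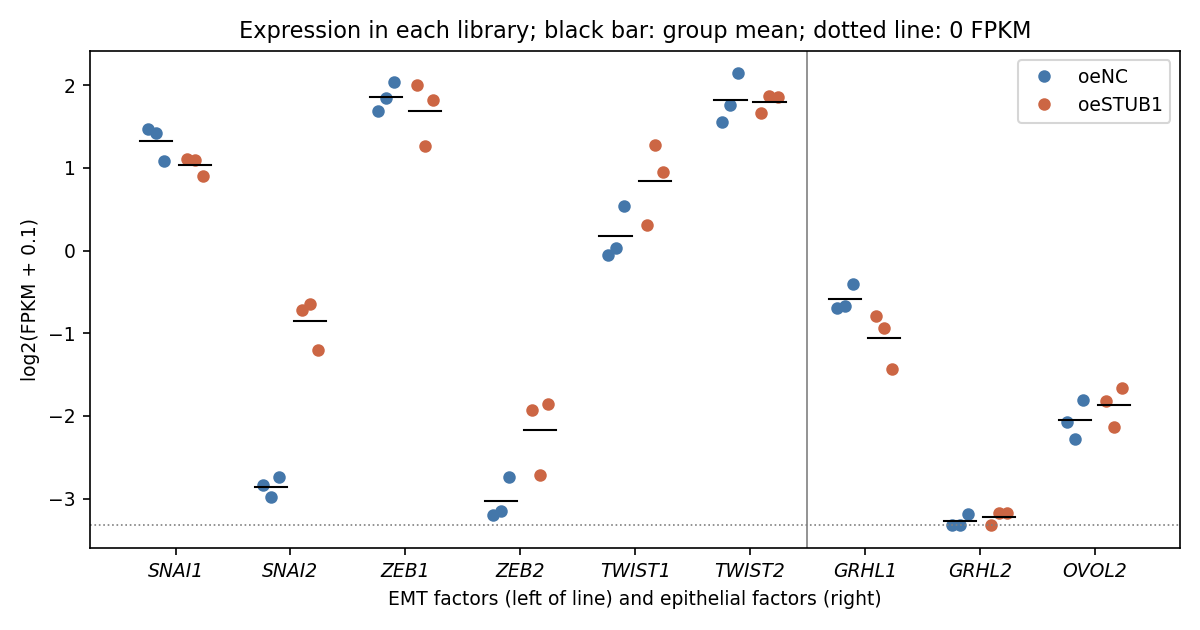
Expression of the 9 listed factors in each of the 6 libraries, as log2(FPKM + 0.1), with oeNC in blue and oeSTUB1 in orange, black bars at the group means of the log2 values and a dotted line at 0 FPKM. SNAI2 in oeSTUB1 lies clear of its oeNC values but below SNAI1, ZEB1, TWIST1 and TWIST2, and GRHL2 lies at the dotted line in both groups.

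SNAI2 encodes Slug, a zinc finger repressor of epithelial genes. The gene lies at chr8:48917604-48921740 on the minus strand (GENCODE 29, GRCh38). Its expression was 0.0397, 0.0265 and 0.0499 FPKM in oeNC replicates 1, 2 and 3, and 0.506, 0.540 and 0.336 FPKM in oeSTUB1 replicates 1, 2 and 3. The groups did not overlap, and the lowest oeSTUB1 library was above the highest oeNC library. These values rest on 3, 2 and 4 fragments in oeNC and on 38, 39 and 25 fragments in oeSTUB1. The ratio of summed fragments, 102 against 9 and corrected for library totals, was 11.8, with an exact 95% interval of 5.99 to 26.6 that covers counting error only. The log2 fold change was 2.00 (SE 0.24, 95% interval 1.44 to 2.55, limma, adjusted p = 0.0018). SNAI2 remained called in each of the 15 alternatives that gave it a value, with log2 fold changes between 1.89 and 2.17 when a library was left out. The size depended on the pseudocount, with a log2 fold change of 0.49 at a pseudocount of 1 and 3.27 at 0.01. With the filter raised to 1 FPKM, SNAI2 could not be tested. Averaged over the 6 libraries, its level was above that of 41.4% of the listed genes, against 58.9% for SNAI1.

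SNAI1, the gene for Snail, is the closest relative of SNAI2 and was the more abundant of the pair in every library. It measured 2.67, 2.57 and 2.03 FPKM in oeNC and 2.06, 2.04 and 1.77 FPKM in oeSTUB1. The groups overlapped, because oeNC replicate 3 fell just under oeSTUB1 replicates 1 and 2. The log2 fold change was -0.29 (SE 0.14, 95% interval -0.61 to 0.04, limma, adjusted p = 0.21), and SNAI1 was called in none of the alternatives. Within the SNAI pair, SNAI2 made up 1.46%, 1.02% and 2.40% of the summed FPKM in oeNC and 19.7%, 21.0% and 16.0% in oeSTUB1. The pair therefore stayed mainly SNAI1 while the share of SNAI2 was higher in all 3 oeSTUB1 libraries.

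ZEB1 represses CDH1 and polarity genes and is a mutual antagonist of the miR-200 family. Its expression was 3.13, 3.48 and 4.01 FPKM in oeNC and 3.90, 2.30 and 3.43 FPKM in oeSTUB1. The groups overlapped, and oeSTUB1 replicate 2 was the lowest library. The log2 fold change was -0.16 (SE 0.20, 95% interval -0.62 to 0.29, limma, adjusted p = 0.62). Without oeSTUB1 replicate 2 it was 0.05 (adjusted p = 0.79), so its sign rested on that library. ZEB1-AS1, a noncoding gene at the ZEB1 locus, averaged 1.40 FPKM in oeNC and 1.29 FPKM in oeSTUB1 (log2 fold change -0.10, limma, adjusted p = 0.71). Whether strand was used in counting is not given in the sources used here, so reads of ZEB1 and its antisense gene may not be separated where they overlap.

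ZEB2, the related repressor, was near the limit of detection in oeNC replicates 1 and 2 and low in the other libraries. It measured 0.00933, 0.0125 and 0.0499 FPKM in oeNC and 0.163, 0.0522 and 0.177 FPKM in oeSTUB1. These values correspond to 3, 4 and 17 fragments in oeNC and 52, 16 and 56 fragments in oeSTUB1. The lowest oeSTUB1 library, replicate 2, and the highest oeNC library, replicate 3, were almost equal, so the groups were barely apart. ZEB2 did not pass the filter, and in the fit without a filter the log2 fold change was 0.86 (limma, adjusted p = 0.11), when 3.95% of all 23569 genes were called higher. The ratio of summed fragments was 5.39 (exact 95% interval 3.46 to 8.73), an interval that leaves out the spread between replicates. ZEB2 made up 0.297%, 0.356% and 1.23% of the ZEB pair in oeNC and 4.01%, 2.22% and 4.91% in oeSTUB1. ZEB1 was thus nearly all of the ZEB RNA in both groups.

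TWIST1 is a helix-loop-helix factor of mesoderm that represses CDH1 and promotes CDH2 in EMT. Its expression was 0.866, 0.920 and 1.35 FPKM in oeNC and 1.14, 2.32 and 1.83 FPKM in oeSTUB1. The groups overlapped, with oeNC replicate 3 above oeSTUB1 replicate 1. The log2 fold change was 0.67 (SE 0.27, 95% interval 0.05 to 1.29, limma, adjusted p = 0.14), which missed the threshold. Leaving out oeSTUB1 replicate 1 gave 0.94 (adjusted p = 0.049) and a call, the only alternative that did so, and adjusted p over the alternatives ran from 0.049 to 0.34. TWIST1 made up 23.3%, 21.8% and 23.8% of the TWIST pair in oeNC and 27.03%, 39.5% and 34.2% in oeSTUB1.

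TWIST2, also known as Dermo1, was among the 2 most abundant of the factors in both groups. It measured 2.85, 3.30 and 4.32 FPKM in oeNC and 3.08, 3.55 and 3.52 FPKM in oeSTUB1. The oeSTUB1 libraries lay inside the range of the oeNC libraries. The log2 fold change was -0.03 (SE 0.16, 95% interval -0.39 to 0.34, limma, adjusted p = 0.93). It turned to 0.14 (adjusted p = 0.60) without oeNC replicate 3 and to 0.04 (adjusted p = 0.90) without oeSTUB1 replicate 1.

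The bars of pair shares set the related factors side by side. The summed FPKM of the 6 EMT factors was 9.56, 10.3 and 11.8 in oeNC and 10.8, 10.8 and 11.1 in oeSTUB1, with means of 10.6 ± 1.14 and 10.9 ± 0.141. The sums overlapped, and their means differed by less than the SD of oeNC.

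**Figure D2:**
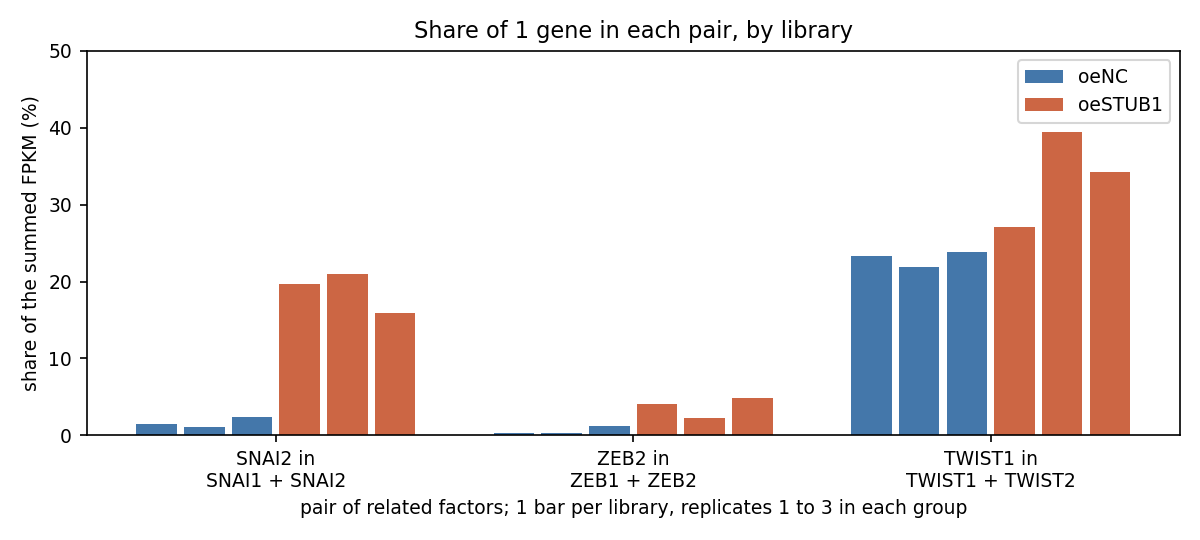
Share (%) of SNAI2 in SNAI1 plus SNAI2, of ZEB2 in ZEB1 plus ZEB2 and of TWIST1 in TWIST1 plus TWIST2, as summed FPKM, with 1 bar per library and replicates 1 to 3 in order. SNAI2 reached 16.0% to 21.0% in oeSTUB1 against 1.02% to 2.40% in oeNC, while TWIST1 reached 27.03% to 39.5% against 21.8% to 23.8%.

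Of the epithelial factors, GRHL1 was the most abundant and was still under 1 FPKM. GRHL1 is a grainyhead-like factor of epithelial barriers and desmosomes. It measured 0.520, 0.528 and 0.653 FPKM in oeNC and 0.479, 0.421 and 0.272 FPKM in oeSTUB1. All oeSTUB1 libraries lay below all oeNC libraries, with replicate 3 the lowest. The log2 fold change was -0.46 (SE 0.22, 95% interval -0.97 to 0.04, limma, adjusted p = 0.20), and GRHL1 was called in none of the alternatives. GRHL1, ZEB2 and TWIST2 lie on chromosome 2, where the median log2 fold change of 1031 tested genes was -0.21 and 77.3% were lower. Its part in the values of these 3 genes was not tested.

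GRHL2, the grainyhead-like factor best known for sustaining CDH1 and tight junction genes, was at the floor in both groups. The gene was listed at 0 fragments in oeNC replicates 1 and 2 and in oeSTUB1 replicate 1, and at 3 fragments in the other 3 libraries. A count of 3 fragments corresponds to about 0.00996 to 0.0111 FPKM in these libraries. The ratio of summed fragments, 6 in oeSTUB1 against 3 in oeNC, was 2.09 with an exact 95% interval of 0.446 to 12.9. That interval covers counting error only, and a difference was not detectable at this depth. OVOL2, a zinc finger factor that represses ZEB1 and maintains epithelial identity, was also low. It measured 0.137, 0.107 and 0.187 FPKM in oeNC and 0.184, 0.128 and 0.216 FPKM in oeSTUB1, from 7 to 14 fragments per library. The groups overlapped, with a log2 fold change of 0.18 (SE 0.25, 95% interval -0.39 to 0.75, limma, adjusted p = 0.67). The summed FPKM of GRHL1, GRHL2 and OVOL2 was 0.714 ± 0.118 in oeNC and 0.574 ± 0.0830 in oeSTUB1, and the 2 groups overlapped.

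**Figure D3:**
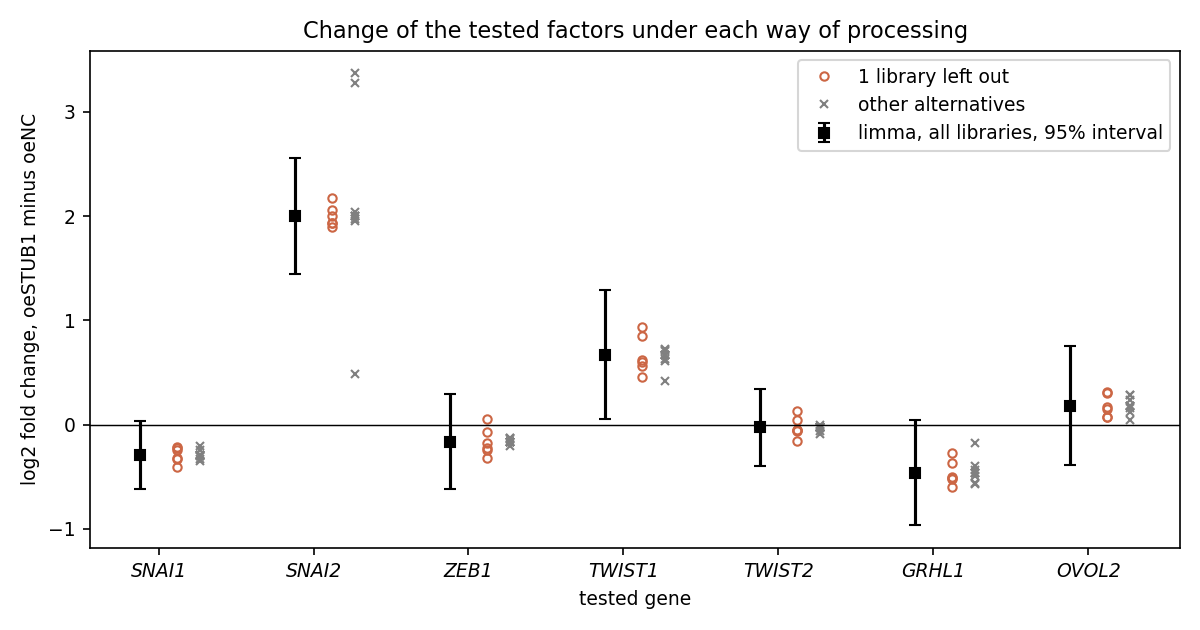
Log2 fold change (oeSTUB1 minus oeNC) of the 7 tested factors, with the limma estimate and its 95% interval as black squares, the values with 1 library left out as open circles and the other alternatives as crosses. The interval of SNAI2 (1.44 to 2.55) and that of TWIST1 (0.05 to 1.29) lie above 0, the latter without a call after adjustment, and the crosses of SNAI2 at 0.49, 3.27 and 3.37 come from the pseudocounts of 1 and 0.01 and from limma-voom on fragments.

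The genes whose levels ran most like those of SNAI2 over the 6 libraries, on the log2(FPKM + 0.1) scale and among 11375 genes that averaged 1 FPKM or more, were PORCN (Pearson r = 0.998), YTHDF1 (0.997) and HSPA4 (0.996). PORCN measured 2.90, 2.75 and 2.98 FPKM in oeNC and 9.55, 9.75 and 7.92 FPKM in oeSTUB1. In all, 455 genes had r over 0.95. With 2 groups of 3 libraries such values mostly restate the gap between the groups, and they are given as a description.

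The other genes that act with these factors were taken from lists. Among the other EMT factors, 5 of 9 listed genes were tested, 1 was called higher and 1 lower, and log2 fold changes in the list had a median of 0.07, against 0.02 over all tested genes. Of all tested genes, 13.6% were called in either direction. SOX4, a HMG box factor of progenitor cells, rose from 8.31 ± 0.372 to 16.7 ± 0.990 FPKM (log2 fold change 1.00, limma, adjusted p = 0.00038) and was called in all 16 alternatives. FOXC1, a forkhead factor, fell from 17.1 ± 1.90 to 12.8 ± 0.972 FPKM (log2 fold change -0.41, limma, adjusted p = 0.039). Its call was lost in 7 of 16 alternatives, among them the omission of any library except oeSTUB1 replicate 2, with adjusted p up to 0.13.

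Among the other epithelial factors, 11 of 14 listed genes were tested, 1 was called higher and 2 lower against the same 13.6% in either direction, and the median was -0.12 on the log2 scale. The counts became 2 higher without oeSTUB1 replicate 2, 0 higher without any other single library, and 0 lower without any oeNC library or oeSTUB1 replicate 1. EHF, an ETS factor of epithelia, rose from 1.223 ± 0.0274 to 2.23 ± 0.724 FPKM (log2 fold change 0.77, limma, adjusted p = 0.046). FOXA1, a pioneer factor of endodermal epithelia, fell from 7.60 ± 0.772 to 5.34 ± 0.738 FPKM (log2 fold change -0.51, limma, adjusted p = 0.035), and TFAP2A, an AP-2 factor, fell from 13.02 ± 0.961 to 9.91 ± 0.218 FPKM (log2 fold change -0.39, limma, adjusted p = 0.022). None of the 3 calls held without oeNC replicate 1, 2 or 3 or without oeSTUB1 replicate 1, with adjusted p up to 0.14 for EHF, 0.13 for FOXA1 and 0.091 for TFAP2A, and those of EHF and TFAP2A were also lost without oeSTUB1 replicate 3. The most abundant genes of the list, ELF3 and KLF5, averaged 74.8 and 42.0 FPKM in oeNC and 68.6 and 32.5 FPKM in oeSTUB1 (limma, adjusted p = 0.59 and 0.051).

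Cofactors and dimer partners were all expressed, with 26 of 26 tested, 1 called higher and 2 lower, and a median log2 fold change of 0.05. These 3 calls stand against 13.6% of all tested genes called in either direction, a share close to that of the list. Without oeSTUB1 replicate 2 the list had 3 higher and 4 lower, and without oeNC replicate 1 or 2 or oeSTUB1 replicate 1 it had 0 higher and 1 lower. The 2 that fell were ID proteins, which lack a DNA binding region and hold E proteins away from their helix-loop-helix partners. ID2 was 172, 164 and 231 FPKM in oeNC and 92.2, 123 and 96.2 FPKM in oeSTUB1. All oeSTUB1 libraries were lower, with a log2 fold change of -0.86 (SE 0.16, limma, adjusted p = 0.012) and a call in all 16 alternatives. ID4 fell from 5.16 ± 1.33 to 2.73 ± 0.747 FPKM (log2 fold change -0.89, limma, adjusted p = 0.038), a call that was lost without any of the 3 oeNC libraries or oeSTUB1 replicate 1 (adjusted p up to 0.12). The call of ID4 was also lost without a filter and without an eBayes trend. ID1 and ID3, the most abundant of the list, averaged 279 and 318 FPKM in oeNC and 219 and 283 FPKM in oeSTUB1 and were not called. The 3 E proteins TCF3, TCF4 and TCF12, partners of the TWIST factors, were not called either. TCF4, also a regulator of EMT and mentioned here after its values were seen, averaged 0.677 ± 0.0637 and 1.19 ± 0.336 FPKM (log2 fold change 0.71, limma, adjusted p = 0.066) and was called in 4 alternatives. Of the 19 corepressors that SNAI and ZEB proteins recruit, AJUBA, a LIM protein that bridges SNAI1 to its corepressors, rose from 11.5 ± 1.53 to 15.9 ± 1.56 FPKM (log2 fold change 0.47, limma, adjusted p = 0.038). Its call was lost in 6 of 16 alternatives (adjusted p up to 0.15). These were the omission of oeNC replicate 1 or 2 or oeSTUB1 replicate 1, no filter, no eBayes trend and a replicate block.

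Kinases, ubiquitin ligases and deubiquitinases known to set the stability of SNAI, ZEB or TWIST proteins numbered 23, all tested, of which 2 were called higher and 1 lower, with a median log2 fold change of -0.07. These 3 calls are close to the background of 13.6% called in either direction over all tested genes. Without oeSTUB1 replicate 2 the list had 4 lower, and without oeNC replicate 2 or 3, or with a replicate block, all 3 calls were lost. FBXL5, an F-box protein that targets SNAI1, rose from 8.57 ± 0.513 to 11.4 ± 0.229 FPKM (log2 fold change 0.40, limma, adjusted p = 0.017), a call lost without oeNC replicate 2 or 3 (adjusted p up to 0.095) and with a replicate block. GSK3A, a kinase related to the GSK3B that marks SNAI1 for destruction, rose from 41.1 ± 1.24 to 50.9 ± 2.81 FPKM (log2 fold change 0.31, limma, adjusted p = 0.033). PAK1, a kinase that phosphorylates SNAI1, fell from 9.75 ± 0.125 to 7.71 ± 0.693 FPKM (log2 fold change -0.34, limma, adjusted p = 0.049). The calls of GSK3A and PAK1 held in the omission of oeSTUB1 replicate 2 and were lost without each of the other 5 libraries (adjusted p up to 0.16 and 0.18). PSMD14, a proteasome deubiquitinase and the most abundant of these genes, averaged 80.9 and 73.4 FPKM (limma, adjusted p = 0.30). These are RNA levels and give no measure of protein stability.

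Known epithelial targets were mostly lower. Of 29 listed genes 23 were tested, 5 were called lower and 1 higher, 17 of the 23 had a log2 fold change under 0, and the median was -0.36 against 0.02 for all tested genes. Over all tested genes 6.59% were called lower and 7.01% higher, and 7270 of 15353 had a log2 fold change under 0. The list was chosen with earlier results of these data known, so its counts are a description only. The 5 lower calls became 9 without oeSTUB1 replicate 2 and 10 with the length correction. CDH1 was 60.8, 65.0 and 61.8 FPKM in oeNC and 30.5, 22.3 and 37.3 FPKM in oeSTUB1. The groups were far apart, and CDH1 fell by 1.09 on the log2 scale (SE 0.17, limma, adjusted p = 0.0055). ERBB3, a receptor of the EGFR family, was 11.8, 13.8 and 13.7 FPKM in oeNC and 3.45, 2.97 and 5.17 FPKM in oeSTUB1, a fall of 1.77 on the log2 scale that had no overlap between groups (limma, adjusted p = 0.0011). CGN, which encodes the tight junction protein cingulin, fell from 9.75 ± 0.652 to 3.25 ± 0.372 FPKM (log2 fold change -1.56, limma, adjusted p = 0.000205). EPCAM, an epithelial adhesion molecule, fell from 6.51 ± 1.19 to 2.96 ± 0.732 FPKM (log2 fold change -1.13, limma, adjusted p = 0.010). KRT18, a keratin of simple epithelia, fell from 3964 ± 111 to 2488 ± 383 FPKM (log2 fold change -0.68, limma, adjusted p = 0.024). MUC1, a membrane mucin, went the other way, from 1.16 ± 0.116 to 2.01 ± 0.105 FPKM (log2 fold change 0.75, limma, adjusted p = 0.0078). CDH1, ERBB3, CGN, EPCAM and MUC1 were called in all 16 alternatives, whereas KRT18 was lost in 7, among them the omission of any library except oeSTUB1 replicate 2 (adjusted p up to 0.12) and the fit without a filter (adjusted p = 0.19).

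Another set of epithelial genes was near 0 in both groups, as GRHL2 was. ESRP1, the epithelial splicing regulator, averaged 0.0188 ± 0.0141 FPKM in oeNC and 0.0597 ± 0.0192 FPKM in oeSTUB1, from 1 to 11 fragments per library. ESRP2, its paralogue, averaged 0.00542 and 0.0142 FPKM. For both, all oeSTUB1 libraries were above all oeNC libraries, opposite to most of the tested targets, but on few fragments. Neither passed the filter or was called without it (log2 fold change 0.43 and 0.12, limma, adjusted p = 0.11 and 0.43). ST14 and SPINT1, also below the filter, averaged lower in oeSTUB1 with overlapping groups. RAB25 and PRSS8, an epithelial GTPase and a membrane protease, were at 0 fragments in all oeNC libraries and at 2 fragments or fewer in oeSTUB1. ESRP1 was in the fixed set of named genes, and the others were named after their values were seen.

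The calls were then set beside the E-box in the promoter windows. Of the 10 epithelial targets with CAGGTG or CACCTG in the promoter window, 9 were tested, none was called lower and 1, MUC1, was called higher. The median log2 fold change of the 9 was -0.33. Of the 8 without it, 7 were tested and CGN was called lower, with a median of -0.29. Over all tested genes 6.59% were called lower and 7.01% higher, and single calls among 9 and 7 genes are too few to set apart from these shares. CDH1, EPCAM, ERBB3 and KRT18, the other 4 targets called lower, had no entry and are in neither count, so the counts do not compare called targets with and without the motif. The 8 tested genes with the motif that were not called were OCLN (-0.26, limma, adjusted p = 0.23), DSP (-0.67, adjusted p = 0.10), CRB3 (-0.40, adjusted p = 0.15), AP1M2 (-0.47, adjusted p = 0.070), PATJ (-0.33, adjusted p = 0.20), CDS1 (-0.46, adjusted p = 0.27), SH3YL1 (0.26, adjusted p = 0.13) and CLDN3 (0.11, adjusted p = 0.79), so 6 had a negative and 2 a positive log2 fold change.

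Known mesenchymal targets were mostly higher. Of 31 listed genes 24 were tested, 9 were called higher and 1 lower, 20 of the 24 had a log2 fold change over 0, and the median was 0.45. Over all tested genes 7.01% were called higher and 6.59% lower, and 8083 of 15353 had a log2 fold change over 0. This list too was chosen with earlier results of these data known, so its counts are a description only. The 9 higher calls became 5 without oeNC replicate 3. CDH2, which encodes N-cadherin, was 0.409, 0.302 and 0.291 FPKM in oeNC and 9.70, 7.77 and 7.20 FPKM in oeSTUB1 (log2 fold change 4.26, SE 0.16, limma, adjusted p = 2.2e-05). COL5A1, a fibrillar collagen chain, rose from 1.04 ± 0.363 to 12.9 ± 3.51 FPKM (log2 fold change 3.53, limma, adjusted p = 0.00031). SPARC, a matrix glycoprotein, rose from 0.147 ± 0.160 to 1.39 ± 0.172 FPKM (log2 fold change 2.78, limma, adjusted p = 0.0037). TGFBI, an abundant matrix protein induced by TGF-beta, rose from 335 ± 28.8 to 558 ± 75.6 FPKM (log2 fold change 0.73, limma, adjusted p = 0.0090), a call lost without oeNC replicate 3 (adjusted p = 0.052). The gene called lower was MMP14, a membrane metalloprotease, which fell from 1.64 ± 0.136 to 0.729 ± 0.0819 FPKM (log2 fold change -1.07, limma, adjusted p = 0.0029). FN1, which encodes fibronectin and is mentioned here after its values were seen, averaged 139 ± 10.5 FPKM in oeNC and 91.8 ± 33.9 FPKM in oeSTUB1. Its groups did not overlap, but it was not called (log2 fold change -0.67, limma, adjusted p = 0.13). VIM, the mesenchymal intermediate filament vimentin, was already abundant in oeNC and averaged 497 ± 34.6 and 525 ± 86.2 FPKM with overlapping groups (log2 fold change 0.07, limma, adjusted p = 0.77). Cadherin levels per length thus lay at 62.6 and 0.334 FPKM for CDH1 and CDH2 in oeNC and at 30.04 and 8.22 FPKM in oeSTUB1, so CDH1 remained the more abundant.

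**Figure D4:**
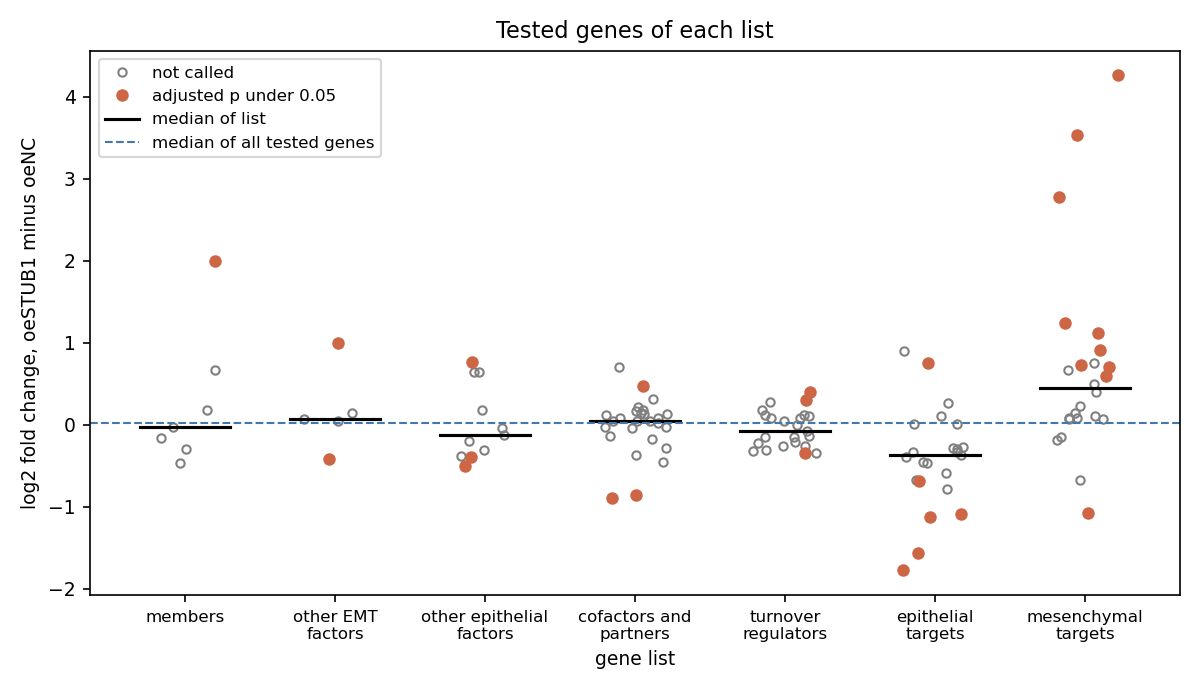
Log2 fold change (oeSTUB1 minus oeNC) of every tested gene of the chosen factors and of 6 related lists, with called genes filled, list medians as black bars and the median of all tested genes (0.02) as a dashed line. The list medians run from -0.36 for epithelial targets to 0.45 for mesenchymal targets, and SNAI2 is the filled point of the first column.

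Of the noncoding genes at these loci, 2 of 7 were listed and neither was called. SNAI3-AS1 averaged 0.385 ± 0.109 FPKM in oeNC and 0.606 ± 0.0990 FPKM in oeSTUB1 (log2 fold change 0.56, limma, adjusted p = 0.14).

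The cell type label was checked against marker genes. Of 9 markers of biliary epithelium, KRT7, KRT8, KRT18, SPP1, EPCAM and SOX9 were present, KRT19 averaged 0.453 FPKM in oeNC and 2.97 FPKM in oeSTUB1, and CFTR was at 2 fragments or fewer in every library. The low KRT19, together with GRHL2, ESRP1 and ESRP2 near 0, goes against a full biliary epithelial profile, and the label is kept as given. Of the 8 tested biliary markers 4 were called lower and 1 higher, against 6.59% and 7.01% of all tested genes. The higher call was KRT19 (log2 fold change 2.47, limma, adjusted p = 0.00018), with all oeSTUB1 libraries above all oeNC libraries. The lower calls KRT18 and EPCAM are also counted among the epithelial targets. The summed FPKM of the 9 lay between 7473 and 8066 in oeNC and between 4775 and 6345 in oeSTUB1. KRT8 and KRT18 led this sum. KRT7 averaged 502 and 704 FPKM and CLDN4 0.274 and 0.564 FPKM in oeNC and oeSTUB1, and neither was called. In bulk samples, fewer cells of a type and less RNA per cell cannot be told apart. The 9 listed fibroblast markers summed to 1.31 to 2.37 FPKM in oeNC and 2.18 to 4.08 FPKM in oeSTUB1, none of the 2 tested was called, and DCN was at 2 fragments or fewer in every library. Summed markers were 0.0770 to 0.103 and 0.0974 to 0.2496 FPKM for endothelium, 32.7 to 35.0 and 26.1 to 27.1 FPKM for blood, led by CD68, and 94.5 to 100.4 and 33.5 to 52.8 FPKM for hepatocytes, led by CPS1. Of the tested markers of these 3 kinds (1 of endothelium, 5 of blood and 2 of hepatocytes), CD68 and CPS1 were called lower and none higher. Over all tested genes, 6.59% were called lower.

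In oeSTUB1 replicate 2 the median log2 difference from the other oeSTUB1 libraries was 0.289 for genes in the lowest quartile of exon length and -0.327 for the highest quartile, against -0.174 to 0.181 in the other oeSTUB1 libraries and -0.0399 to 0.0302 in oeNC. The part of this length pattern in the results of long genes was not tested beyond the fits without oeSTUB1 replicate 2 and with a correction for length. Under both, SNAI2 stayed called, with log2 fold changes of 1.89 and 1.95. ZEB2, with 25058 exonic bases in GENCODE, was lowest in replicate 2 among the oeSTUB1 libraries. It did not pass the filter and has no value in either fit.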

How the data were processed

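The authors deposited 1 table of FPKM values for 23569 genes and 6 libraries. The submitters' processing notes name fastp 0.20.1, HISAT2 2.1.0, HTSeq 0.11.2, DESeq2 1.22.2, R 3.2.0 and build GRCh38.p13. Whether counting used strand is not given in the sources used here. The members and lists were chosen with earlier results of these data known. Conditions were taken from the labels, which matched the column names. Whole fragments were recovered from the FPKM steps for 23569 genes (recomputed FPKM differed by at most 4.9e-06) and may share an undetected common factor, as for ZEB1, whose recovered length is 2733 bases against 8650 exonic bases in GENCODE. Fragments on listed genes made up 99.7% of each total. limma 3.58.1 in R 4.3.3 (lmFit, eBayes with trend, two-sided) was run on log2(FPKM + 0.1) over the 15353 genes averaging 0.1 FPKM or more, with Benjamini-Hochberg adjustment over all of them. Other steps used Python 3.11.15. Genes were named by rule: all members, STUB1, CDH1, CDH2, VIM, ESRP1 and EPCAM, from each list the called genes (at most 3 rises and 3 falls, reaching 1 FPKM in either group) and the 2 most abundant, and the 3 genes most like a called member with an absolute log2 fold change over 1. For genes with several promoters in the RefSeq table, the first was used. Tested on simulated data for oeSTUB1 against oeNC, all 200 genes changed 4-fold were called with the right sign among 15348 tested, and 9 of the unchanged were called. The changed genes were drawn from those averaging 1 FPKM or more, with a fixed dispersion and without the length pattern of oeSTUB1 replicate 2. The simulation therefore gives no measure of power for lower genes such as SNAI2, ZEB2, GRHL1, GRHL2 and OVOL2. Each result was recomputed at pseudocounts of 0.01 and 1, with a filter at 1 FPKM or none, after quantile normalization or median-ratio scaling, with no eBayes trend, with a replicate block, by limma-voom on fragments, with each library left out and, added after seeing the data, a lowess correction for gene length. One marker gene is not reported here.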

Additional observations from a re-analysis of the deposited data

How the results depend on the processing

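SNAI2 stayed called under every alternative that gave it a value. With a filter at a mean of 1 FPKM it could not be tested, and 0 members were called higher (limma). Leaving out 1 library turned the sign of ZEB1, with log2 fold changes from -0.32 to 0.051 (the latter without oeSTUB1 replicate 2), and of TWIST2, from -0.16 to 0.14 (0.14 without oeNC replicate 3 and 0.04 without oeSTUB1 replicate 1), and neither was called.

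Leaving out 1 library gave 477 to 2274 genes called higher and 456 to 1838 lower (1076 and 1012 with all libraries), the most without oeSTUB1 replicate 2. Over these fits the genes called higher and lower numbered 1 to 2 and 0 to 0 for the chosen factors, 1 to 1 and 0 to 1 for other EMT factors, 0 to 2 and 0 to 3 for other epithelial factors, 0 to 3 and 1 to 4 for cofactors, 0 to 2 and 0 to 4 for turnover regulators, 1 to 2 and 4 to 9 for epithelial targets, and 5 to 10 and 1 to 2 for mesenchymal targets.

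Small list counts moved under other settings, and the cause was not tested. With the length correction, cofactors had 2 higher and 4 lower, turnover regulators 2 lower, epithelial targets 10 lower and mesenchymal targets 2 lower. With quantile normalization, cofactors had 2 higher and 4 lower and turnover regulators 2 lower. With limma-voom, cofactors had 2 higher. With median-ratio scaling, other epithelial factors had 0 higher and turnover regulators 1 higher. Without a trend, cofactors had 0 higher and 1 lower, other EMT factors 0 lower, other epithelial factors 0 higher and 1 lower, and turnover regulators 1 higher and 0 lower. Without a filter, cofactors had 0 higher and 1 lower, other EMT factors 0 lower, other epithelial factors 0 higher and 1 lower, and turnover regulators 0 lower. At a pseudocount of 0.01 turnover regulators had 0 lower, and at 1 other epithelial factors had 0 higher.

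Deviations of same-numbered libraries from their group means correlated at -0.149, -0.083 and 0.147. With 3 libraries per group such deviations are tied to one another, so these values cannot decide whether the replicate numbers pair the libraries. With a replicate block, 741 genes were higher and 747 lower, SNAI2 stayed called (adjusted p = 0.0071), cofactors had 0 higher, other epithelial factors 0 higher and 1 lower, and turnover regulators 0 higher and 0 lower. Depth limits GRHL2 and OVOL2 in both groups and ZEB2 and SNAI2 above all in oeNC, where they rest on few fragments.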
